A study of Mus musculus with 60 samples.

Results

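Genes of DNA replication and mitosis were read in the prefrontal cortex of young mice. The set holds 40 listed symbols, from Mki67 and Top2a to the MCM helicase, the mitotic kinases and the kinetochore. All 40 were found among the 18088 genes of the table, and all 40 reached a value of 10 or more in at least 5 libraries, as did 17781 genes in all. A value is the number of reads of a gene divided by the size factor of its library. Libraries held 23930164 to 36515331 reads. The members nearest the threshold were Ndc80, at 10 or more in 22 of 60 libraries, Bub1 in 25 and Knl1 in 26. No listed symbol fell outside it.

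The 60 RNA-seq libraries come from C57BL/6J mice at postnatal day 25. The mice were wild type (WT) or carried 1 copy of the K228E allele of Tbr1 (Tbr1+/K228E, here HT), a gene for a transcription factor that acts in deep cortical layers. Pups of each genotype and sex received vehicle, fluoxetine (a serotonin reuptake inhibitor) or lithium (a mood stabiliser) in the milk of their mothers from day 3 to day 24. This gives 12 groups of 5 libraries. The question here is how the drugs and the allele relate to the RNA of dividing cells, and how this RNA follows markers of neuroblasts and of the olfactory bulb. No litter, mother or batch is named in the labels. The p-values therefore reflect only how far these libraries spread, and they are too small if a group holds littermates.

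Cells that divide copy their DNA in S phase, where the MCM complex, a ring of the proteins Mcm2 to Mcm7, is loaded on DNA and unwinds it together with Cdc45. Cyclins then drive Cdk1 into mitosis, kinetochores tie chromosomes to the spindle, a checkpoint holds the cell until all are attached, and the anaphase-promoting complex with its activator Cdc20 lets the chromosomes part. In the young cortex, oligodendrocyte precursors are the main dividing cells of the parenchyma, and microglia and endothelium divide at a low rate. The forebrain also has a germinal zone along the lateral ventricle, from which neuroblasts migrate to the olfactory bulb.

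Many genes that peak in mitosis carry a CCAAT box and a cell cycle genes homology region (CHR) near their start, while S-phase genes often carry E2F sites. The RefSeq promoter table (GRCm38.p6, 250 bases before to 50 after each start) held 39 promoters of 36 members. It had no entry for Mcm4, Ccna2, Aurkb and Tpx2. Shown are the 150 bases before the start for the proliferation markers Mki67 and Top2a and the spindle motor Kif11, and for Mcm5 and Mcm6, a pair of subunits of one helicase whose RNA moved differently below. Capitals mark matches on either strand. The CHR was searched as TTTGAA, or in its other common spelling as TTCGAA. The CCAAT box was searched by those letters. The E2F motif was searched in 4 spellings, which are TTTCCCGC, TTTGGCGC, TTTGCCGC and TTTCGCGC. Where E2F matches overlap, the run of capitals is longer than 1 motif.
Mki67, chr7:135716380-135716529, minus strand: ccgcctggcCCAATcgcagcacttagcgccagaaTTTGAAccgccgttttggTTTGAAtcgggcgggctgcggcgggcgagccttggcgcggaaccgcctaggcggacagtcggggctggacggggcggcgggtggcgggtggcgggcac
Top2a, chr11:99024190-99024339, minus strand: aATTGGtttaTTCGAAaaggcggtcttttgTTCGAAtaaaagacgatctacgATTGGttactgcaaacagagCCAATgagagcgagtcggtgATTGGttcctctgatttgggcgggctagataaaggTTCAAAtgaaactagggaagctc
Kif11, chr19:37376232-37376381, plus strand: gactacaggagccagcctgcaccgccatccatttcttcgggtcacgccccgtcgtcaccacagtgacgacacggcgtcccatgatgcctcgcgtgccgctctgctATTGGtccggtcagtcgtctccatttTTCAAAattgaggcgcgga
Mcm5, chr8:75109359-75109508, plus strand: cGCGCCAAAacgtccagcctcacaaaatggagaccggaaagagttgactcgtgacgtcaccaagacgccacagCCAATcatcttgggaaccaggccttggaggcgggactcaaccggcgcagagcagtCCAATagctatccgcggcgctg
Mcm6, chr1:128359706-128359855, minus strand: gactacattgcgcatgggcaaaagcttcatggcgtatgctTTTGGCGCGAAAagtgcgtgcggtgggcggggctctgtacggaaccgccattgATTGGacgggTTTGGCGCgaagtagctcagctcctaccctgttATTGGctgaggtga

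A CHR match stood in 28 of the 39 member promoters (71.8%), against 19.2% of all 32851 promoters of the same 300 bases. CCAAT stood in 79.5% of member promoters against 37.4%, both together in 61.5% against 7.52%, and the E2F motif in 12.8% against 2.26%. In the windows shown, Mki67, Top2a and Kif11 hold CHR and CCAAT but no E2F match, while Mcm5 and Mcm6 hold E2F and CCAAT but no CHR. Other members did not keep to this split. Over the 300 bases Mcm2 had a CHR but no E2F match, and Cdk1 and a promoter of Mcm7 had both. A match describes the letters only.

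Levels per length differed widely. Counted per kilobase of exon, Mcm7 stood at a mean value of 80.4, Mcm4 at 68.5, Mcm6 at 45.4, Mcm5 at 40.4 and Anln at 31.2. Mki67 stood at 8.88 and Top2a at 8.15, and the lowest members were the kinetochore genes Ndc80 at 1.39 and Knl1 at 1.20. Mcm7, Mcm4, Mcm6, Mcm5 and the cytokinesis scaffold anillin (Anln) were thus read far more per length than Ndc80 and Knl1.

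Some libraries stood apart before any member was considered. The 10 libraries of vehicle males differed from those of vehicle females in 9327 of the 17781 genes, against 11 genes between the sexes under fluoxetine and 14 under lithium. Every comparison of a drug with vehicle in males uses these 10 libraries, so in males this difference and the drug cannot be told apart. Whether it is a batch or a difference of the sexes under vehicle was not tested. Counts for females, which do not use these libraries, are given beside the averaged count of each drug against vehicle. The comparison of HT with WT under vehicle, the interactions of genotype and drug, and the counts of other cell-cycle genes use the vehicle males and are given with the sexes averaged. In 5 libraries (HT lithium female replicate 1, HT vehicle male replicates 4 and 5, WT lithium female replicate 2 and WT lithium male replicate 2) the mean log2 value of a list of 12 striatal genes was at least 9.59, against at most 8.54 in the other 55. Slc17a7 and Neurod6, markers of cortical projection neurons, were read in every library. Tbr1 was read at 845 to 3309 (median 2387) in WT and 1167 to 4980 (4342) in HT vehicle mice, at 3191 to 3839 (3669) and 3841 to 5238 (4742) under fluoxetine, and at 1862 to 3883 (3019) and 2241 to 5241 (4316) under lithium. Its median was higher in HT under each treatment, and the genotypes did not overlap under fluoxetine. The reads are not split by allele.

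The content of olfactory bulb and neuroblast RNA also moved with treatment. The summed value of the 7 bulb markers (such as Th, Tbx21 and Eomes) ran from 364 to 23854 with a median of 7861 in vehicle libraries, from 161 to 3884 (653) under fluoxetine and from 96.6 to 15813 (5562) under lithium. The summed value of the 12 neuroblast markers (such as Dcx, Sox11 and Dlx2) ran from 8762 to 45308 (18846) in vehicle libraries, from 8475 to 14493 (9625) under fluoxetine and from 6514 to 28406 (15232) under lithium. In the comparison of fluoxetine with vehicle in WT, 7 of 7 bulb markers (median log2 change -4.43) and 12 of 12 neuroblast markers (-1.89) fell. No bulb or neuroblast marker was at 0 in any library.

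Mki67, the antigen that coats mitotic chromosomes and marks cycling cells (chromosome 7, 135689784 to 135716361), did not pass the test in any drug comparison averaged over the sexes. Its values ran from 51.8 to 132 (median 91.9) in WT vehicle libraries, from 48.8 to 113 (79.6) in WT fluoxetine and from 36.4 to 144 (83.6) in WT lithium libraries. In HT mice they ran from 47.3 to 199 (105) under vehicle, from 66.3 to 99.5 (83.8) under fluoxetine and from 28.6 to 170 (70.8) under lithium. All 6 ranges overlapped.

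The log2 change of Mki67 was -0.17 under fluoxetine in WT (SE 0.23, limma with Benjamini-Hochberg adjustment, adjusted p = 0.52) and -0.28 in HT (adjusted p = 0.33). Under lithium it was -0.08 in WT (adjusted p = 0.81) and -0.45 in HT (adjusted p = 0.15). Top2a, the topoisomerase that untangles replicated chromosomes (chromosome 11, 98992943 to 99024189), ran from 53.5 to 121 (median 81.6) in WT vehicle, 39.9 to 105 (76.4) in WT fluoxetine and 31.5 to 148 (70.5) in WT lithium libraries. Its HT values ran from 37.0 to 159 (85.2) under vehicle, 34.2 to 80.6 (62.3) under fluoxetine and 16.5 to 143 (64.3) under lithium. Its log2 changes were -0.10, -0.43, -0.27 and -0.45 in the same order of comparisons, with adjusted p of 0.76, 0.19, 0.40 and 0.22. So neither proliferation marker passed the test with either drug when the sexes were averaged, and the spread within groups was wide.

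**Figure D1:**
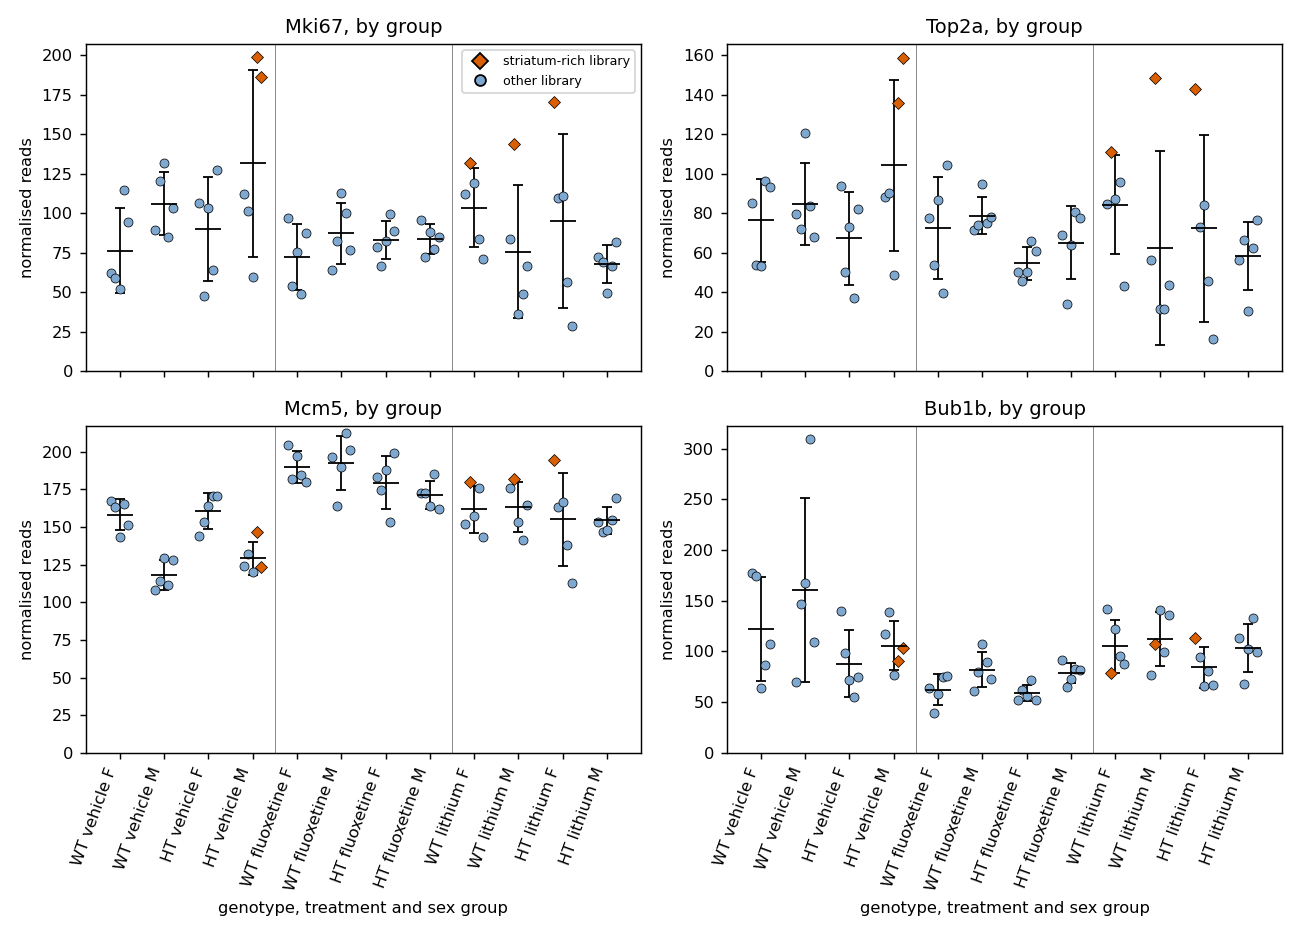
Normalised reads of Mki67, Top2a, Mcm5 and Bub1b in each library (1 point each), by genotype, treatment and sex group (F female, M male), with the mean and SD of 5 libraries. Orange diamonds are the 5 libraries rich in striatal markers, where Mki67 reached 199 in the group of HT vehicle males.

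The replication genes did not move as a block under fluoxetine in WT mice. Mcm5 (chromosome 8, 75109569 to 75128439) rose, and Mcm7 (chromosome 5, 138164583 to 138172422) fell, although both encode subunits of the same hexameric helicase. In WT vehicle females Mcm5 stood at 167, 163, 144, 165 and 152, and in WT vehicle males at 108, 114, 130, 112 and 128. Under fluoxetine it stood at 204, 182, 197, 184 and 180 in WT females and at 196, 164, 190, 212 and 201 in WT males. Every fluoxetine library was above every vehicle library of its own sex in WT.

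Mcm7 showed the opposite order. It stood at 446, 488, 621, 362 and 377 in WT vehicle females and at 272, 278, 282, 281 and 334 under fluoxetine. In males it stood at 373, 457, 400, 557 and 384 under vehicle and at 342, 297, 363, 310 and 273 under fluoxetine. The vehicle and fluoxetine libraries did not overlap in either sex. With the sexes averaged the log2 change was 0.48 for Mcm5 (SE 0.06, adjusted p = 2.1e-08) and -0.54 for Mcm7 (SE 0.11, adjusted p = 4.1e-05). In females alone it was 0.26 for Mcm5 (adjusted p = 0.02) and -0.64 for Mcm7 (adjusted p = 0.0023).

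In total, 16 of the 40 members were called for fluoxetine against vehicle in WT at an adjusted p below 0.05, 6 higher and 10 lower, where 63.2% of all genes were called (31.7% higher and 31.5% lower). The members' share is therefore below that of all genes. Among genes with a mean of at least 50, 8 of the 14 members tested were called, along with 9675 genes of all. The part of low reads in the members' share was not tested. Their median log2 change was -0.14, against -0.01 over all genes tested. In WT females alone 5 members were called, 3 higher and 2 lower, against 39.8% of all genes. In WT males, whose vehicle libraries stand apart, 12 were called, 5 higher and 7 lower, against 58.0%.

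By role, 7 of the 9 replication and nucleotide supply genes were called. Mcm2 (log2 change 0.32) and Mcm3 (0.25) rose beside Mcm5. Mcm6 (-0.20), Mcm4 (-0.19) and Tyms, which makes thymidylate for DNA (-0.41), fell beside Mcm7. Rrm2, a subunit of ribonucleotide reductase, and Cdc45 did not pass the test, at 0.02 and -0.09. In females alone Mcm2 was at 0.04 and Mcm3 at -0.02, and neither passed the test. Of the replication genes that fell, only Mcm7 was called lower in females alone.

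Among the mitotic kinases and checkpoint genes, Bub1b (BubR1, a component of the spindle checkpoint, chromosome 2, 118598211 to 118641591) fell. It stood at 178, 175, 63.7, 86.9 and 108 in WT vehicle females and at 64.2, 38.8, 58.4, 74.7 and 75.6 under fluoxetine, so the ranges overlapped. Its log2 change was -0.85 averaged over sexes (SE 0.19, adjusted p = 1e-04) and -0.89 in females (adjusted p = 0.0077). Aurka, the kinase of centrosome maturation, rose by 0.48 averaged over the sexes and by 0.57 in females. The other 5 genes of this group (Aurkb, Plk1, Birc5, Cdca8 and Bub1) did not pass the test.

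Of the cyclin group, Ccnb1 rose (0.51) and Ccna2 fell (-0.31), and Cdk1 (0.02) and Ccnb2 (-0.37) did not pass the test. At the kinetochore, Nuf2 and Spc25, both of the Ndc80 complex that binds microtubules, fell by 0.48 and 0.62. These are changes averaged over the sexes and use the vehicle males. In WT females alone Mcm7 and Bub1b were the only members called lower, so no fall given in this paragraph was called there. Ndc80 itself was at 0.00 and did not pass the test. Among the spindle genes the kinesin Kif20b fell by 0.62 and Prc1, which bundles the central spindle, fell by 0.49. Hmmr, a spindle assembly factor, rose by 0.63, from 15.2 to 45.0 (median 32.7) in WT vehicle libraries to 29.8 to 68.6 (43.3), with ranges that overlap. The remaining kinetochore genes (Knl1, Cenpe and Cenpf) and spindle genes (Kif11, Kif23, Kif4, Tpx2 and Nusap1) did not pass the test. Neither of the cytokinesis scaffolds (Ect2 -0.33 and Anln -0.24) nor either gene of the anaphase-promoting complex (Cdc20 -0.12 and Ube2c -0.02) passed the test.

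Mcm7 and Bub1b lost their call, and Mcm5 kept it, once the marker content of each library was held in the fit. With the mean of the bulb list as a covariate, Mcm7 was at 0.01 (adjusted p = 0.94) and Bub1b at -0.30 (adjusted p = 0.37), while Mcm5 was at 0.49 (adjusted p = 5.8e-05). With the neuroblast list, Mcm7 was at 0.06 (adjusted p = 0.56), Bub1b at -0.26 (adjusted p = 0.41) and Mcm5 at 0.50 (adjusted p = 2.6e-05). With either list, Mcm5 was no longer called in females alone, at 0.28 in both fits (adjusted p = 0.78 and 0.60). In females 1 gene of all was called with the bulb list and 0 with the neuroblast list, so this loss is not particular to Mcm5. With the sexes averaged, members called in WT numbered 2 with the bulb list and 3 with the neuroblast list. All genes called were 3447 and 4015, against 11239 with neither. In WT the mean of the bulb list was at most 7.67 under fluoxetine and at least 8.92 under vehicle. That of the neuroblast list was at most 8.69 and at least 9.26, so the arms shared no level of either list. In bulk tissue fewer cells of a type and less RNA per cell cannot be told apart.

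**Figure D2:**
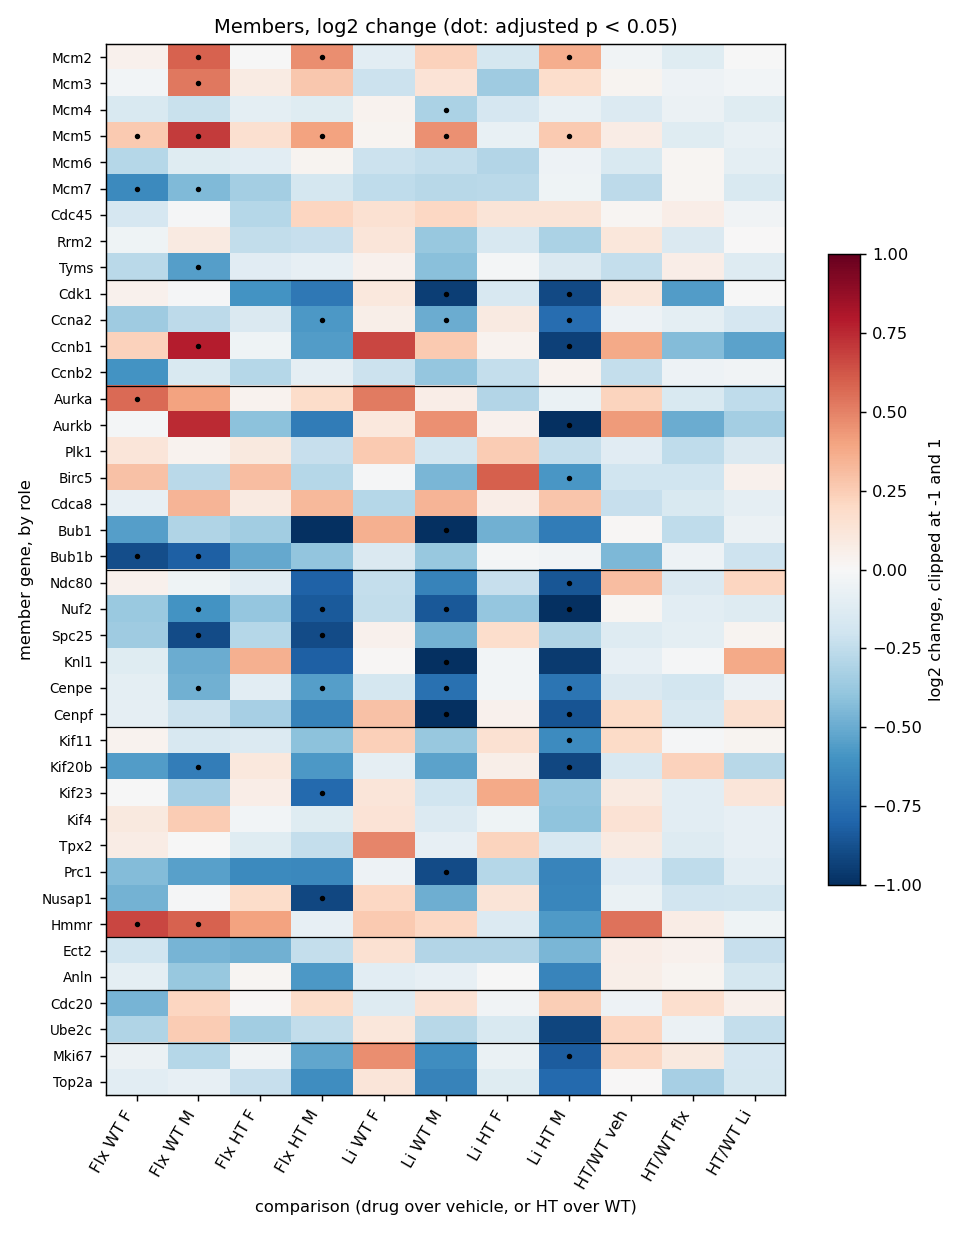
Log2 change of the 40 members (rows, by role) for each drug over vehicle in females (F) and males (M) of each genotype, and for HT over WT under each treatment (columns). Dots mark an adjusted p below 0.05, colours are clipped at -1 and 1, and most dots stand in the male columns, whose vehicle libraries stand apart. Mcm5 is at 0.26 and Mcm7 at -0.64 in WT females under fluoxetine.

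In HT mice fluoxetine was followed by a smaller count. Here 10 members were called, 2 higher and 8 lower, against 40.8% of all genes (20.2% higher and 20.6% lower). Of the 40, 32 had a negative log2 change, with a median of -0.26. The share of negative signs and the median over all genes are not given, so these signs are not read as a result about the members. Mcm5 stood at 144, 153, 164, 171 and 171 in HT vehicle females and at 183, 175, 188, 153 and 199 under fluoxetine. In HT males it stood at 124, 132, 120, 147 and 123 under vehicle and at 173, 172, 164, 185 and 162 under fluoxetine. The male groups did not overlap and the female groups did.

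The change of Mcm5 was 0.28 (SE 0.06, adjusted p = 0.00048), and Mcm2 was the other gene that rose (0.23). The 8 that fell are genes of the cyclin, checkpoint, kinetochore and spindle groups. Nuf2 changed by -0.61 (SE 0.16, adjusted p = 0.0025), Prc1 by -0.64 (adjusted p = 0.011) and Cdk1 by -0.65 (adjusted p = 0.012), with Spc25 (-0.59), Cenpf (-0.50), Bub1b (-0.45), Ccna2 (-0.36) and Kif23 (-0.36). In this comparison 7 of 7 bulb and 10 of 12 neuroblast markers fell too. In HT females alone 0 members were called by limma, 3 were at an unadjusted p below 0.05, and edgeR and DESeq2 also called 0. The background there was 0% of all genes by limma, while DESeq2 called 388 genes of all. Here and below, shares of all genes are at an adjusted p below 0.05, and none is given at an unadjusted p. In HT males 8 were called, 2 higher and 6 lower, against 41.4%. The averaged count in HT was 6 without HT vehicle male replicate 5. It was 2 with the bulb or the neuroblast list as a covariate, Mcm5 among them, where 4224 and 4911 genes of all were called.

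Whether fluoxetine acted differently in the 2 genotypes was tested directly. The interaction of genotype and fluoxetine called 0 members by limma and by edgeR and DESeq2, with 4 at an unadjusted p below 0.05 and a background of 0%. Ccnb1 had the smallest of these p-values, with a difference of -0.81 (HT minus WT, adjusted p = 0.33). The interaction of genotype and lithium called 0 members by the same tools, with 3 at an unadjusted p below 0.05 and a background of 0%. The different counts in WT and HT are therefore not shown to differ.

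Lithium was compared with the same vehicle libraries, so its values stand beside those of fluoxetine and are not independent of them. In WT, 6 members were called, 1 higher and 5 lower, against 42.7% of all genes (21.8% higher and 20.9% lower), with a median log2 change of -0.13. Mcm5 stood at 152, 180, 157, 176 and 144 in females and at 176, 182, 153, 141 and 164 in males, and rose by 0.24 (SE 0.06, adjusted p = 0.0019). Its change in females was 0.03, and only the male groups did not overlap.

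Kinetochore genes made up 3 of the 5 that fell in WT under lithium. Nuf2 ran from 38.6 to 89.4 (median 55.2) under vehicle and from 26.2 to 51.5 (42.4) under lithium, a log2 change of -0.55 (adjusted p = 0.0061). Knl1, the scaffold that recruits checkpoint proteins, fell by 0.95 (adjusted p = 0.0089), from 6.44 to 21.2 (12.2) to 0.93 to 12.9 (7.74). Cenpe, a kinesin of the kinetochore, fell by 0.46, and Mcm7 and Mcm6 fell by 0.27 and 0.23. In this comparison 8 of 12 neuroblast markers fell. With the neuroblast list as a covariate Mcm5 was the 1 member still called, where 5560 genes of all were called. Nuf2 (adjusted p = 0.085), Cenpe (adjusted p = 0.086) and Knl1 (adjusted p = 0.079) were not called in that fit. In WT females alone 0 members were called by limma, with 3 at an unadjusted p below 0.05 and 0 by edgeR and DESeq2, against 0.00562% of all genes by limma. In WT males 10 were called, 1 higher and 9 lower, against 48.2%.

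In HT, lithium was followed by 2 calls, both lower, against 23.2% of all genes (12.6% higher and 10.6% lower). The members had a median of -0.24 and a negative sign in 32 of 40. Here too the signs and the median over all genes are not given, so these are not read as a result about the members. Nuf2 ran from 28.3 to 102 (median 61.5) under vehicle and from 22 to 48.2 (38.0) under lithium, a log2 change of -0.70 (SE 0.16, adjusted p = 0.0012). Ccna2 fell by 0.33 (adjusted p = 0.044). Nuf2 was called in every comparison of a drug with vehicle averaged over the sexes, and its values overlapped between drug and vehicle in each. In females alone its lithium change was -0.24 in WT and -0.39 in HT, and neither passed the test. Under fluoxetine it was not called in females of either genotype.

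In HT females under lithium 0 members were called by limma, with 4 at an unadjusted p below 0.05 and 0 by edgeR and DESeq2, against 0.0169% of all genes. In HT males 14 were called, 2 higher and 12 lower, against 36.9%. This is the comparison in which Mki67 was called, at -0.83 (adjusted p = 0.035). It stood at 112, 101, 59.5, 199 and 187 in HT vehicle males and at 72.2, 69.3, 49.4, 66.5 and 82.1 under lithium, so the groups overlapped. The highest pair of vehicle values are libraries rich in striatal markers. The averaged count in HT rests on single libraries: it ranged from 1 to 5 when each was left out, with 5 without HT lithium female replicate 1, HT vehicle female replicate 4 or HT vehicle male replicate 3.

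Fluoxetine and lithium were also compared with each other, which uses no vehicle library. In WT, 5 members were called against 18.8% of all genes. Mcm5 (0.23), Mcm2 (0.26) and Mcm3 (0.29) were higher under fluoxetine, and Bub1b (-0.59) and Cdc45 (-0.27) were lower. The count was 1 without WT lithium female replicate 3, where Mcm5 was called. It was also 1 with the bulb list as a covariate, where 360 genes of all were called. There Mcm5 (adjusted p = 0.080), Mcm3 (adjusted p = 0.16), Bub1b (adjusted p = 0.72) and Cdc45 (adjusted p = 0.35) lost their call. In HT, 0 members were called by limma, with 6 at an unadjusted p below 0.05 and 0 by edgeR and DESeq2, against 4.41%.

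The allele itself moved no member past the threshold. Under vehicle 0 members were called between HT and WT by limma, and 0 by edgeR and DESeq2, where limma called 0.0337% of all genes. At an unadjusted p below 0.05 there were 3 members, and the share of all genes at that threshold is not given. DESeq2 called 1583 genes of all in this comparison and edgeR 9 or 27, by its scaling. The 3 members were Hmmr (0.54, adjusted p = 0.079), Bub1b (-0.45, adjusted p = 0.097) and Mcm7 (-0.26, adjusted p = 0.098). The genotypes also differed in marker content under vehicle, with ranges that overlapped. The bulb list averaged 8.53 in HT females and 8.50 in HT males, against 10.1 and 9.87 in WT. The neuroblast list averaged 9.10 and 9.26, against 9.97 and 9.94. The part of this content in the changes of the 3 members was not tested. Mcm7 stood at 672 in HT vehicle female replicate 1, against 330, 366, 277 and 327 in the other HT vehicle females. That library was rich in bulb RNA, with a mean log2 value of the bulb list of 10.9. Without it, 4 members were called (Bub1b, Hmmr, Mcm4 and Mcm7) along with 6275 genes of all.

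Under fluoxetine 0 members were called between HT and WT by limma, with 2 at an unadjusted p below 0.05 (Cdk1 and Ccnb1) and 0 by edgeR and DESeq2, against 0.0112% of all genes. Under lithium 0 were called by the same tools, with 1 at an unadjusted p below 0.05 (Ccnb1, -0.54), against 0.00562%. With 5 libraries per group, smaller changes may have been missed.

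The sexes were compared within each treatment, genotypes averaged. Under vehicle 19 members were called between males and females, 13 higher and 6 lower in males, against 52.5% of all genes (26.1% higher and 26.4% lower). The 13 that were higher included the kinetochore genes Knl1 (0.99), Nuf2 (0.58), Cenpf (0.55), Cenpe (0.49) and Spc25 (0.48) and the spindle motor Kif11 (0.45). The 6 that were lower included Mcm2 (-0.47), Mcm5 (-0.37) and Mcm3 (-0.35). Under fluoxetine 0 were called by limma, edgeR and DESeq2, with 2 at an unadjusted p below 0.05, against 0.0619% of all genes, and under lithium 0 by the same tools, with 6, against 0.0787%.

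The difference of the fluoxetine effect between the sexes was called for 6 members, 4 higher and 2 lower in males, against 39.5% of all genes. That of the lithium effect was called for 15, 3 higher and 12 lower, against 40.8% (20.2% higher and 20.6% lower). Mcm2, Mcm3 and Mcm5 were higher in males in both, and Birc5, the survivin of the chromosomal passenger complex, and Kif23 were lower in both. Both interactions use the vehicle males.

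The members were next followed along marker lists within the groups, as the slope of a member's log2 value on the mean log2 value of a list around the 12 group means. On the neuroblast list 20 members rose and 1 fell, where 30.3% of all genes rose, with a median slope of 0.18 per unit of the list. Mcm7 had the smallest p with 0.33 (SE 0.02, adjusted p = 2.7e-16), followed by Mcm6 at 0.22 (adjusted p = 1.2e-08), Mcm4 at 0.16 (adjusted p = 6.5e-07) and the cytokinesis regulator Ect2 at 0.43 (adjusted p = 7.1e-06). Hmmr went the other way, at -0.33 (adjusted p = 0.00013). Mcm5 and Mcm2 were both at 0.01 and Mcm3 at 0.04, and none of them passed the test. The 3 MCM genes that followed the neuroblast list are those that fell under fluoxetine in WT with the sexes averaged, and the 3 that did not are those that rose. In WT females alone Mcm5 rose and Mcm7 fell past the threshold, and Mcm2, Mcm3, Mcm4 and Mcm6 did not. The split thus rests in part on comparisons that use the vehicle males. Its relation to neuroblast content was not tested beyond the fits of Mcm5 and Mcm7 with the neuroblast list given above. In those fits the WT arms shared no level of that list.

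On the bulb list 15 members rose and 1 fell, where 26.1% of all genes rose. The leading ones were Mcm7 (0.13, adjusted p = 3.5e-10), Mcm6 (0.09), Ect2 (0.17) and Mcm4 (0.06), and Hmmr fell (-0.11). The bulb and neuroblast lists move together, so both were placed in one fit. There 0 members followed the bulb list by limma, with 4 at an unadjusted p below 0.05, where 12% of all genes did in either direction. On the neuroblast list 5 still rose (Mcm4 0.29, Mcm7 0.46, Nuf2 0.67, Ccnb2 0.72 and Kif20b 0.87) and Hmmr fell (-0.83), where 20.9% of all genes rose.

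Mki67 and Top2a were followed along the same lists. Mki67 had a slope of 0.05 on the bulb list (adjusted p = 0.40) and 0.16 on the neuroblast list (adjusted p = 0.19). Top2a had 0.10 (adjusted p = 0.080) and 0.30 (adjusted p = 0.022), so it passed the test on the neuroblast list and Mki67 on neither. On the list of oligodendrocyte precursors (9 genes such as Pdgfra, Cspg4 and Gpr17) Top2a rose by 3.65 per unit (SE 0.49, adjusted p = 2e-07), Mki67 by 2.98 (SE 0.46, adjusted p = 2.2e-06) and Anln by 2.97 (SE 0.37, adjusted p = 3.5e-08). A unit of this list is wide, as libraries ran only from 9.27 to 9.94 on it.

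In all, 34 members rose and 0 fell along the precursor list, where 19.7% of all genes rose. The count was 22 with the bulb list and 19 with the neuroblast list as a covariate, where 2855 and 2650 genes of all were called. Olig2 and Sox10 of the precursor list are also read in mature oligodendrocytes. On the mature oligodendrocyte list 21 members rose and 1 fell (Kif23, -0.26), where 9.32% of all genes rose. Anln, which mature oligodendrocytes also make, led it with 0.77 (adjusted p = 1.3e-11). The number of calls, 22, was 10 without the 5 libraries rich in striatal markers, where 2068 genes of all were called. It was 10 with the striatal list as a covariate, of 1921 genes, and 13 without HT lithium female replicate 5, of 2553. On the list of neural stem and transit-amplifying cells 17 rose and 2 fell, where 31.3% rose. On the microglia list 2 rose and 15 fell, where 17.1% of all genes rose and 16.0% fell, with Top2a at -3.03 (adjusted p = 0.0022).

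**Figure D3:**
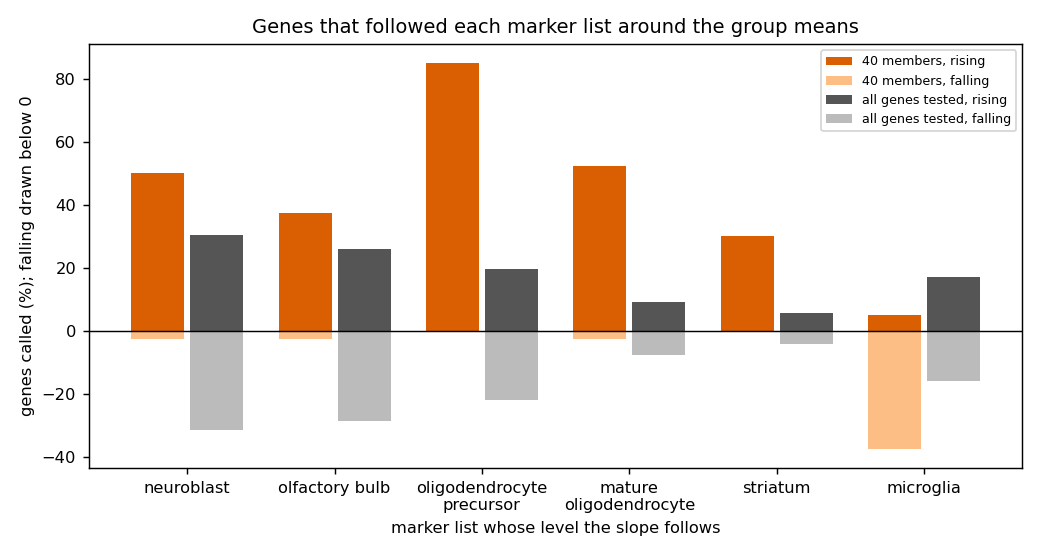
Share of members and of all genes that rose (above 0) or fell (below 0) with each marker list around the group means. The members' share is farthest above that of all genes for the precursor list, at 34 of 40 against 19.7%, and closer to it for the bulb list, at 15 of 40 against 26.1%.

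The striatal list was followed by 12 members, all rising, where 5.57% of all genes rose. Mki67 had a slope of 0.43 (adjusted p = 4.1e-05), Top2a 0.48 (adjusted p = 0.00011), Kif11 0.23 and Rrm2 0.24. Mki67 ran from 132 to 199 (median 170) in the 5 libraries rich in striatal markers and from 28.6 to 132 (82.3) in the other 55. Top2a ran from 111 to 159 (143) against 16.5 to 121 (71.6). The ranges of Mki67 met without crossing, and those of Top2a overlapped. The same 5 libraries were also the highest on the mature oligodendrocyte list, at 12.992 or more against at most 12.945 in the other 55. In these 5 libraries striatal and mature oligodendrocyte content therefore cannot be told apart. Mki67, Top2a, Kif11, Kif4 and Rrm2 were, in all 5, above every library of their own group that was not rich in striatal markers. By the same measure 22 members were above in 3 or more of the 5, and 3 members in none. The share of all genes was not computed, so these counts are not read as a result about the members. Without the 5 libraries 3 members followed the list (Kif11, Mki67 and Rrm2). The part of striatal content in the group differences of these genes was not tested beyond the fits with this list.

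The neuroblast, precursor and striatal lists were then placed in one fit. The mature oligodendrocyte list was not among them. On the neuroblast list 7 rose and 1 fell, where 23.4% of all genes rose. On the precursor list Top2a (2.51), Mki67 (2.57) and Anln (2.40) rose, where 2.56% of all genes did. On the striatal list 5 rose, where 1.61% did, and these were Ccna2, Kif11, Cenpf, Mki67 (0.30) and Top2a (0.37).

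**Figure D4:**
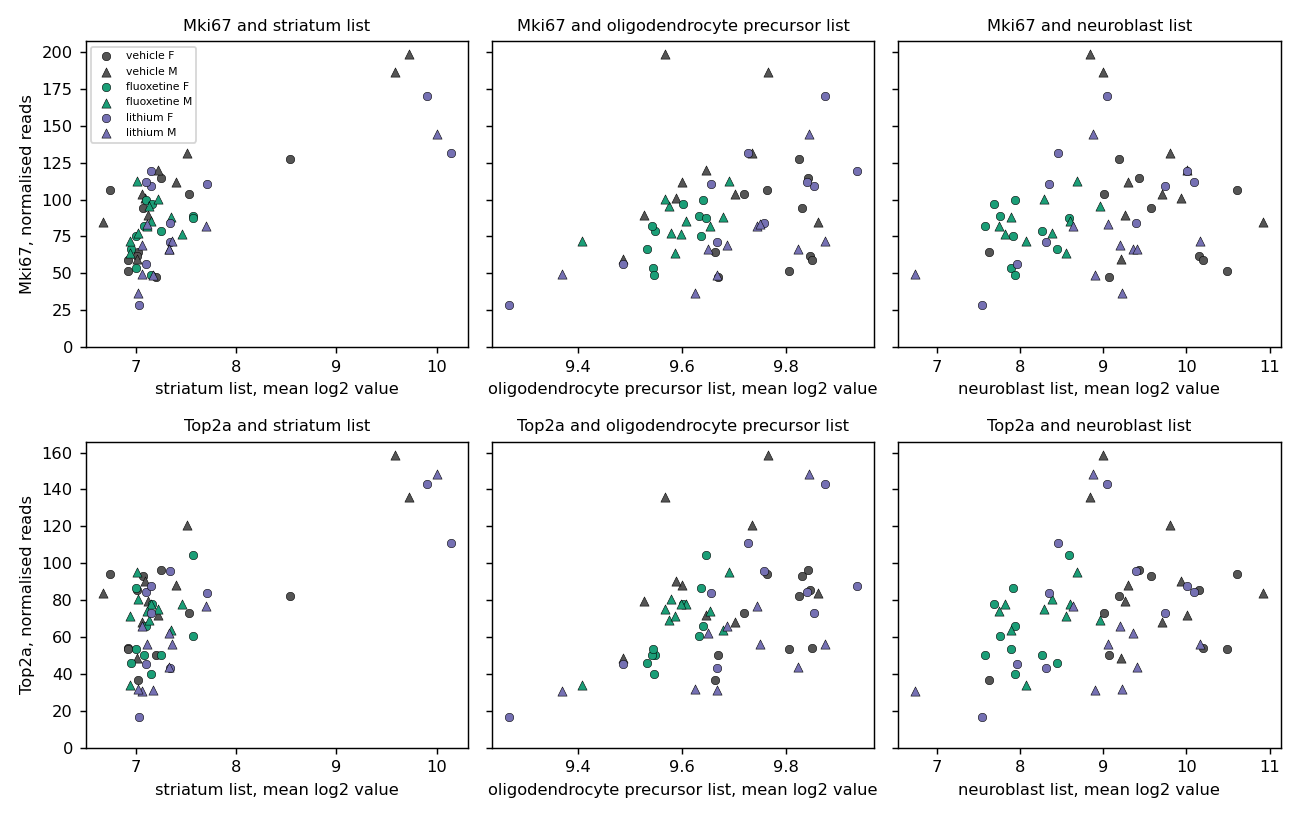
Normalised reads of Mki67 and Top2a in each of the 60 libraries against the mean log2 value of marker lists, by treatment (colour) and sex (circles female, triangles male). The lowest library of both genes is also the lowest on the precursor list, and the 5 libraries at 9.59 or more on the striatal list hold Mki67 at 132 to 199.

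Among themselves the members moved together only in part. Around the 12 group means, over 60 libraries that share depth and dissection, the median correlation of the 780 pairs was 0.31, and 665 pairs were above 0. Mki67 and Top2a correlated at r = 0.886 (Spearman's rho = 0.856, permutation p = 1e-05 each, the smallest that 100000 permutations can give, 1 pair tested), and at 0.844 without the 2 libraries farthest from the median of Mki67. With the mean of the other members, 17 members correlated at 0.6 or more, led by Top2a (0.91), Prc1 (0.86) and Mki67 (0.85). Below 0.3 were Bub1b (0.28), Kif4 (0.23), Birc5 (0.22), Hmmr (-0.04), Cdc45 (-0.13) and Kif23 (-0.28).

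The 10 other genes most alike to the mean of the members around the group means, over 60 libraries, were Uhrf1 (0.81), Filip1 (0.81), Cers2 (0.80), Klhl13 (0.79), Gsn (0.79), Kif18b (0.78), Pclaf (0.78), Gltp (0.78), Nts (0.77) and Micall1 (0.77). Uhrf1, Kif18b and Pclaf are themselves genes of dividing cells. Gsn and Cers2 are abundant in mature oligodendrocytes.

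Lists of other cell-cycle genes were read the same way. For fluoxetine in WT, where 63.2% of all genes were called, 9 of 36 further genes of G1/S and replication rose and 12 fell, with Fen1, which trims Okazaki fragments, at 0.37 and E2f1 at 0.69 among those that rose, and Brca1 (-0.77) and Pola1 (-0.69) among those that fell. Of 47 further genes of G2 and mitosis 8 rose, such as Racgap1 (0.36) and Pttg1 (0.37), and 7 fell, such as Smc4 (-0.62) and Lmnb1 (-0.71). Of 11 cell-cycle inhibitors 1 rose, Cdkn2d (0.33), and 7 fell, among them Btg1 (-1.35), Cdkn1b (-0.54) and Rb1 (-0.51).

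For fluoxetine in HT, where 40.8% of all genes were called, the counts of genes that rose and fell were 6 and 5, 4 and 5, and 1 and 5, in the same order of lists. For lithium they were 4 and 7, 6 and 5, and 1 and 7 in WT, where 42.7% of all genes were called. In HT under lithium they were 1 and 3, 0 and 7, and 1 and 1, where 23.2% were called. Between HT and WT under vehicle limma called 0 in each of the 3 lists and 0.0337% of all genes. At an unadjusted p below 0.05 there were 18, 6 and 6 genes. The share of all genes at that threshold is not given, so these numbers are not read as a result about the lists.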

How the data were processed

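The members and gene lists were chosen with earlier results of these data known. Per the labels' protocols, a TruSeq stranded kit was used for mRNA. As deposited, each value is a signal: the reads of a gene, divided by a size factor of that library. Each value was a whole multiple of 1 read (100% of values at a tolerance of 1e-06), so reads could be recovered, with size factors from 0.818 to 1.33. The submitters' processing notes name Salmon 0.11.2, R 3.6.0, DESeq2 1.19.11 and GRCm38, with no role. Positions of genes are those of GENCODE for GRCm38, and 18077 of 18088 identifiers matched a symbol.

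A gene was tested if 5 or more libraries reached 10. The model, on log2(value + 1), had 12 group means and all 60 libraries and was fitted by limma 3.58.1 (R 4.3.3, trended variance, two-sided). Benjamini-Hochberg adjustment ran over 17781 genes, and an adjusted p below 0.05 made a call. Folds on this scale understate changes of low genes. Slopes are coefficients of the mean log2 value of a marker list around the group means. Named are every member by role, the members with the highest mean per role, up to 4 with the smallest p per comparison, and the 10 genes most alike. Hmmr, Mcm2 and other members past the threshold are named beyond this rule.

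Alternatives were pseudocounts of 0.5 and 5, no filter, a mean of at least 50, quantile normalization, no trend, only the groups compared, a replicate block, count tests of the reads (edgeR 4.0.16, and DESeq2 1.42.0), marker lists as covariates, and leaving out each library. Added after seeing the data were the precursor covariate, the striatal and mature oligodendrocyte slopes, the sex comparisons, the fit with 3 lists, and fits without the 10 vehicle male or the 5 striatum-rich libraries. The test was also run on simulated counts, whose outcome is not given here. They held set changes only and no shift of the vehicle males, so they cannot speak to that shift.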

Additional observations from a re-analysis of the deposited data

Results flagged for a closer look

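In groups of 5, a library was taken as standing apart when its gap to the nearest other library was above 0.71 of the whole range of the group. The 21 members named by the rule and the mean of all members were screened in each of the 12 groups, which makes 264 sets. Of these, 9 met this, and chance flags about 1 in 20. Mcm7 stood at 672 in HT vehicle female replicate 1 and at 334 in WT fluoxetine female replicate 5. Mcm4 stood at 386 in WT vehicle male replicate 4. Top2a stood at 148 and Mcm3 at 98.6 in WT lithium male replicate 2, which is rich in striatal markers, and Top2a at 95 in WT fluoxetine male replicate 3. In WT vehicle females Anln stood at 224 in replicate 2, Ect2 at 37.5 in replicate 1 and Cdc45 at 32.4 in replicate 5.

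The drug effects differed between the sexes by the interaction term of limma, as males minus females with genotypes averaged. For fluoxetine the difference was 0.51 for Mcm2, 0.37 for Mcm3, 0.34 for Mcm5, 0.33 for Cdc45, -0.58 for Birc5 and -0.59 for Kif23. For lithium it was 0.44 for Mcm2, 0.44 for Mcm3 and 0.38 for Mcm5. It was -0.89 for Cdk1, -0.70 for Ccna2, -0.81 for Birc5, -0.61 for Nuf2, -1.43 for Knl1, -0.64 for Cenpe, -1.13 for Cenpf, -0.70 for Kif11, -0.71 for Kif20b, -0.54 for Kif23, -0.48 for Tpx2 and -0.93 for Mki67. All of these use the 10 vehicle male libraries, which differ from vehicle females in 9327 genes, so in males the drug and this difference cannot be told apart.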

How the results depend on the processing

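Counts are of members called. Over 25 counts, 357 of 409 alternatives other than leaving out a library stayed within 1.5 times. Pseudocounts of 0.5 and 5 and no filter left all 25 within it. With a mean of at least 50, where 14 members were tested, counts were 8 (fluoxetine, WT), 4 (fluoxetine, HT), 3 (lithium, WT), 1 (lithium, HT), 3 (fluoxetine, WT females), 7 (sex under vehicle), 3 and 7 (sex by fluoxetine and by lithium), and 6, 7, 13 and 10 on the bulb, neuroblast, precursor and mature oligodendrocyte slopes. Fewer members were tested there. Quantile normalization gave 1 for lithium in HT, and fitting only the groups compared gave 1 for lithium in HT and 2 for fluoxetine against lithium in HT.

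With the bulb list as a covariate counts were 2 (fluoxetine, WT), 2 (fluoxetine, HT), 1 (lithium, HT), 0 (fluoxetine, WT females), 1 and 1 (fluoxetine against lithium, WT and HT), and 6, 22 and 20 on the neuroblast, precursor and striatal slopes. With the neuroblast list they were 3 (fluoxetine, WT), 2 (fluoxetine, HT), 1 (lithium, WT), 0 (fluoxetine, WT females), 3 and 1 (fluoxetine against lithium, WT and HT), and 0, 19 and 21 on the bulb, precursor and striatal slopes. With the striatal list they were 11 (lithium, WT), 9 and 3 (fluoxetine against lithium), and 25 and 10 on the bulb and mature oligodendrocyte slopes. With the precursor list they were 4 (lithium, HT), 2 (fluoxetine, WT females), 8 and 3 (fluoxetine against lithium), 15 and 27 (sex by fluoxetine and by lithium), and 7 and 11 on the bulb and neuroblast slopes. Without the 5 striatum-rich libraries they were 2 (fluoxetine against lithium, HT) and 3 and 10 on the striatal and mature oligodendrocyte slopes. With 3 lists in one fit the neuroblast, precursor and striatal slopes gave 8, 3 and 5. The number of all genes called moved too. For fluoxetine in WT females it was 7084 without a covariate, 1 with the bulb list and 0 with the neuroblast list. The cause of these shifts was not tested.

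Of 2850 values of named members, 75 lost their call and 7 changed sign. Under fluoxetine in WT, Mcm7 was at 0.015 with the bulb and 0.064 with the neuroblast list, Kif20b at 0.024 with the neuroblast list, and Mcm7 in females at 0.0063 with the neuroblast list. On the bulb slope with the neuroblast list, Mcm7 was at -0.061, Ect2 at -0.055 and Mcm4 at -0.060.

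Leaving out each library in turn gave 11 to 17 (fluoxetine, WT), 6 to 14 (fluoxetine, HT), 4 to 9 (lithium, WT), 1 to 5 (lithium, HT), 3 to 6 (fluoxetine, WT females), 0 to 4 (HT against WT, vehicle), 1 to 6 and 0 to 2 (fluoxetine against lithium, WT and HT), 15 to 19 (sex under vehicle), 4 to 7 and 14 to 22 (sex by fluoxetine and by lithium), and 13 to 21, 18 to 23, 27 to 34, 7 to 15 and 13 to 23 on the bulb, neuroblast, precursor, striatal and mature oligodendrocyte slopes. The striatal slope gave 7 without WT lithium male replicate 2, and the mature oligodendrocyte slope 13 without HT lithium female replicate 5. Fluoxetine in WT females gave 3 without WT fluoxetine female replicate 1 or WT vehicle female replicate 3. Lithium in HT gave 4 without HT lithium male replicate 1, and 1 without HT lithium female replicate 3 or 5, HT lithium male replicate 3, HT vehicle female replicate 1 or 5, or HT vehicle male replicate 2, 4 or 5. Fluoxetine against lithium in WT gave 2 without WT lithium female replicate 1 or WT lithium male replicate 3, and 3 without WT fluoxetine female replicate 2 or 3, WT fluoxetine male replicate 4 or 5, or WT lithium male replicate 1. In HT it gave 1 without HT fluoxetine female replicate 4 and 2 without HT lithium female replicate 1. HT against WT under vehicle gave 1 without HT vehicle male replicate 2 or WT vehicle female replicate 4, and 2 without WT vehicle male replicate 1. The other counts of 0 stayed at 0.

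Same-numbered libraries of different groups correlated at a median of 0.0062 over 330 pairs, so no pairing by replicate number was seen across the groups as a whole. A median over all groups cannot exclude pairing between some of them. With the replicate block counts were 16 and 8 (fluoxetine, WT and HT), 6 and 3 (lithium, WT and HT), and it moved no count beyond 1.5 times. Members with few reads, such as Ndc80 and Knl1, are limited by depth.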
